A study of Mus musculus with 12 samples.

Results

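The regulatory T cell genes Foxp3, Il2ra, Ikzf2, Tnfrsf4, Tnfrsf18, Nrp1 and Izumo1r were followed across the T cell lineages of the mouse brain. They were taken by symbol, and all 7 were found among the 32285 genes measured. T cells that bound antibodies to CD4, CD8 or the γδ receptor were sorted from perfused, enzyme-digested brains of female littermates at 9 months of age. They were profiled by 5′ single-cell RNA sequencing together with their αβ receptors, with 1 RNA and 1 receptor library for each of 6 pools of mice (12 libraries). The pools were 5XFAD-1 and 5XFAD-2 (4 and 3 mice hemizygous for the 5XFAD amyloid transgenes), PS-5X (4 mice carrying both 5XFAD and PS19), PS19 (4 mice hemizygous for mutant human MAPT, which encodes tau, under the mouse prion protein promoter), and WT-1 and WT-2 (10 and 8 mice with neither). The 5XFAD line was C57BL6 congenic and the PS19 line was on B6C3F1/J. A separate sequencing run held 5XFAD-2 and WT-2, and a common run the other pools. A pool cannot show the spread between its mice, and the PS19 and PS-5X genotypes had 1 pool each.

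Regulatory T cells restrain other T cells and, in tissues, take part in repair. Their defining transcription factor is Foxp3, and they live on interleukin-2, which they bind with high affinity through CD25, the receptor chain encoded by Il2ra. Ikzf2 encodes Helios, a zinc finger factor of the Ikaros family. Tnfrsf4 (OX40) and Tnfrsf18 (GITR) are costimulatory receptors of the tumor necrosis factor receptor superfamily, which signal through TRAF adaptors to NF-κB. Nrp1 encodes neuropilin-1, a semaphorin and VEGF co-receptor, and Izumo1r encodes folate receptor 4, a surface protein of regulatory T cells in mice. Several of these genes are also used outside the regulatory lineage: CD25, OX40 and GITR appear on activated conventional T cells, and CD25 is carried by interleukin-17-producing γδ T cells.

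Tnfrsf4 and Tnfrsf18 are neighbours on chromosome 4 (GRCm38; 156013595 to 156016613 and 156026322 to 156028894), both on the plus strand with 9708 bases between them. Foxp3 lies on chromosome X, Il2ra on chromosome 2, Ikzf2 on chromosome 1, Nrp1 on chromosome 8 and Izumo1r on chromosome 9. RefSeq promoter windows (GRCm38.p6, 250 bases before to 50 after the start) were found for 6 of the 7 genes, all but Ikzf2. They were searched on both strands for the STAT consensus TTCNNNGAA, which STAT5 binds downstream of the interleukin-2 receptor, and for the forkhead motif GTAAACA. The first reads the same on both strands, and it was present in 1 of 2 Foxp3 windows and in that of Tnfrsf18, while 8.30% of all 32851 windows in the table held it. The second was in none of the members' windows and in 3.65% of all windows. A match describes letters only. The Foxp3 and Tnfrsf18 windows with a match (in capitals) and that of the neighbouring Tnfrsf4 are printed 5′ to 3′, since the data below set Foxp3 and this receptor pair side by side.
Foxp3 (chrX:7580233-7580532, plus strand): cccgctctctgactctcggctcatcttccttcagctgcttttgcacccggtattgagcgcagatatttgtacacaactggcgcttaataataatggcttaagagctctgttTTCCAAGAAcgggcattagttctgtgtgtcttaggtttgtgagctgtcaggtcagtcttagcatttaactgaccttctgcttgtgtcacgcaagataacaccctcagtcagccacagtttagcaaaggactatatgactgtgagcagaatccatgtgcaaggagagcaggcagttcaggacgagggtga
Tnfrsf18 (chr4:156026072-156026371, plus strand): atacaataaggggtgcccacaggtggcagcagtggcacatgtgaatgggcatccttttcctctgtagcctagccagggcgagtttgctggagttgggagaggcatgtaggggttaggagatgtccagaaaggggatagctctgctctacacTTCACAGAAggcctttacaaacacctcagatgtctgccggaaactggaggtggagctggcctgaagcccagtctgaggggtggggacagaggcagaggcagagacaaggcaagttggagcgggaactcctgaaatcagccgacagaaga
Tnfrsf4 (chr4:156013445-156013744, plus strand): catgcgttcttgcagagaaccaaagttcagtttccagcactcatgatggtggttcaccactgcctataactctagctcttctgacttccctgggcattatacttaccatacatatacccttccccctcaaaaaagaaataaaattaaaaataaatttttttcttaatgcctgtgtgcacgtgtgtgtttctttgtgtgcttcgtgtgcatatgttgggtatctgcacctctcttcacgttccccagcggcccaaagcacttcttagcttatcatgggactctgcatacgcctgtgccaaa

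The pools held 854 to 6373 barcodes and 5883210 to 38616794 unique molecular identifiers (UMIs, each a captured RNA molecule), and 17376 of 18374 barcodes were kept. Cells were classed by genes outside the 7 members: CD4 T cells had a Cd4 UMI, no Cd8a, Cd8b1 or Trdc UMI and a productive TRB contig, CD8 T cells had Cd8b1 and a TRB contig without Cd4 or Trdc, and γδ T cells had Trdc and a CD3 gene without Cd4, Cd8b1 or a TRB contig. This gave 2565 CD4, 751 γδ and 9810 CD8 T cells, and 4250 cells met no rule. Markers outside these rules were also present: Cd40lg in 32.4% of CD4 cells with and 65.9% of those without a Foxp3 UMI, and Trdv4 in 72.7% of γδ cells. Any pair of pools shared at most 23 barcodes, none with the same receptor. WT-1 did share receptor sequences with other pools, 58 with 5XFAD-1, 41 with PS19 and 3 with PS-5X, and of Foxp3- CD4 cells with both chains such cells made up 27.4% in 5XFAD-1, 5.00% in PS19 and 21.9% in WT-1. PS-5X and PS19 shared 6 receptors, and of CD8 cells with both chains 31.0% in 5XFAD-1, 5.71% in PS-5X, 12.7% in PS19 and 34.8% in WT-1 carried a shared receptor. How these receptors came to be shared, and so how far the values of WT-1 are its own, was not tested. Leaving such cells out changed no call of a member's expression. No Foxp3+ CD4 cell carried a shared receptor. The γδ class also held cells with NK genes, an Ncr1 UMI in 7.99% and a Klrb1c UMI in 11.6% of cells. Transcripts of red blood cells and of dendritic cells were at 0 in Foxp3+ CD4 cells, as were 8 of 9 microglia and macrophage markers. The ninth, Cst3, had 84.8 to 167 CPM, against 76.2 to 110 CPM for the 9 summed in Foxp3- CD4 cells. Brain parenchyma markers (mainly Mbp) summed to 63.6 to 114 CPM in Foxp3+ and 88.3 to 135 CPM in Foxp3- CD4 cells, and endothelial markers (mainly Pecam1) to 40.9 to 127 CPM in Foxp3+ and 43.5 to 76.2 CPM in Foxp3- CD4 cells. Their part in the results was not tested.

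Among the cells that could be classed, Foxp3 was mainly found in the CD4 lineage. At least 1 Foxp3 UMI was found in 105 of 2565 CD4 T cells (4.09%, exact 95% interval 3.36 to 4.93%), against 3 of 751 γδ T cells (0.399%) and 64 of 9810 CD8 T cells (0.652%), although the median depth was lower in CD4 cells (5672 UMIs) than in γδ (6536) and CD8 cells (6520). At least 2 Foxp3 UMIs were found in 85 CD4 cells (3.31%), no γδ cell and 6 CD8 cells (0.0612%). The cells that met no class rule, whose lineage the rules therefore do not give, held 130 more cells with a Foxp3 UMI (3.06% of 4250), 83 of them with 2 or more. A cluster led by Foxp3, described below, held 101 cells outside the CD4 class. How many of these were among the 130 was not counted. Intervals here cover counting error only. Of the 64 CD8 cells, 58 had a single UMI, and 7 (10.9%) held 3 or more of the other 6 genes, against 1.06% of the 9746 CD8 cells without a Foxp3 UMI, at median depths of 7603.5 and 6507.5 UMIs. In the 6 CD8 cells with 2 or more Foxp3 UMIs, 4 held 3 or more of those genes. Over all CD4 cells Foxp3 stood at 13.4 (5XFAD-1), 51.1 (5XFAD-2), 27.2 (PS-5X), 9.38 (WT-1), 41.7 (WT-2) and 27.9 (PS19) CPM (the gene's UMIs per 1000000 UMIs of a class in a pool). In CD8 cells it was between 0.73 and 2.03 CPM, so each CD4 value lay above each CD8 value. Foxp3 was higher in all CD4 than in CD8 cells by 4.53 ± 0.28 on the log2 scale (SE; edgeR quasi-likelihood test, adjusted p = 2.74e-10; higher in 6 of 6 pools; 13.3% of all genes were higher in this contrast). Against γδ cells, with 3 UMIs in all, the CD4 level was 49.9 times as high, with a counting interval of 17.0 to 243. Between γδ and CD8 cells Foxp3 was not called (edgeR adjusted p = 0.416; 42.3% of genes called in either direction).

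The 105 CD4 cells with a Foxp3 UMI, called Foxp3+ CD4 here, were set against the 2460 CD4 cells without one (Foxp3- CD4), and against γδ and CD8 cells. They came from 5XFAD-1 (7), 5XFAD-2 (18), PS-5X (25), WT-1 (2), WT-2 (34) and PS19 (19). Only the 4 pools with at least 10 such cells entered the expression tests, while the comparison of clones used all 6. Foxp3 itself was not tested between classes that its UMIs define. Detection was incomplete, since only 71.2% of Foxp3+ cells kept a Foxp3 UMI when each cell was thinned to 2000 UMIs, so Foxp3- CD4 can hold cells whose Foxp3 RNA was not sampled.

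All 6 other genes were higher in Foxp3+ than in Foxp3- CD4 T cells (6 of 6 called, where 4.15% of 9906 genes tested were higher). Each was higher in 4 of 4 pools, and the ranges of the classes did not overlap for any of the 6. Against CD8 T cells all 6 were again higher in Foxp3+ CD4 cells (8.38% of genes higher). Against γδ T cells 5 of 6 were higher (9.53% of genes higher) and Il2ra was lower (11.2% lower). Foxp3- CD4 cells exceeded CD8 cells in all 6 (11.8% of genes higher). Against γδ cells they were higher in 4 (18.9% higher) and lower in Il2ra and Ikzf2 (19.6% lower). Within the αβ lineages the order was therefore the same for each of the 6 genes, Foxp3+ CD4 over Foxp3- CD4 over CD8, and the place of γδ cells differed by gene.

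**Figure D1:**
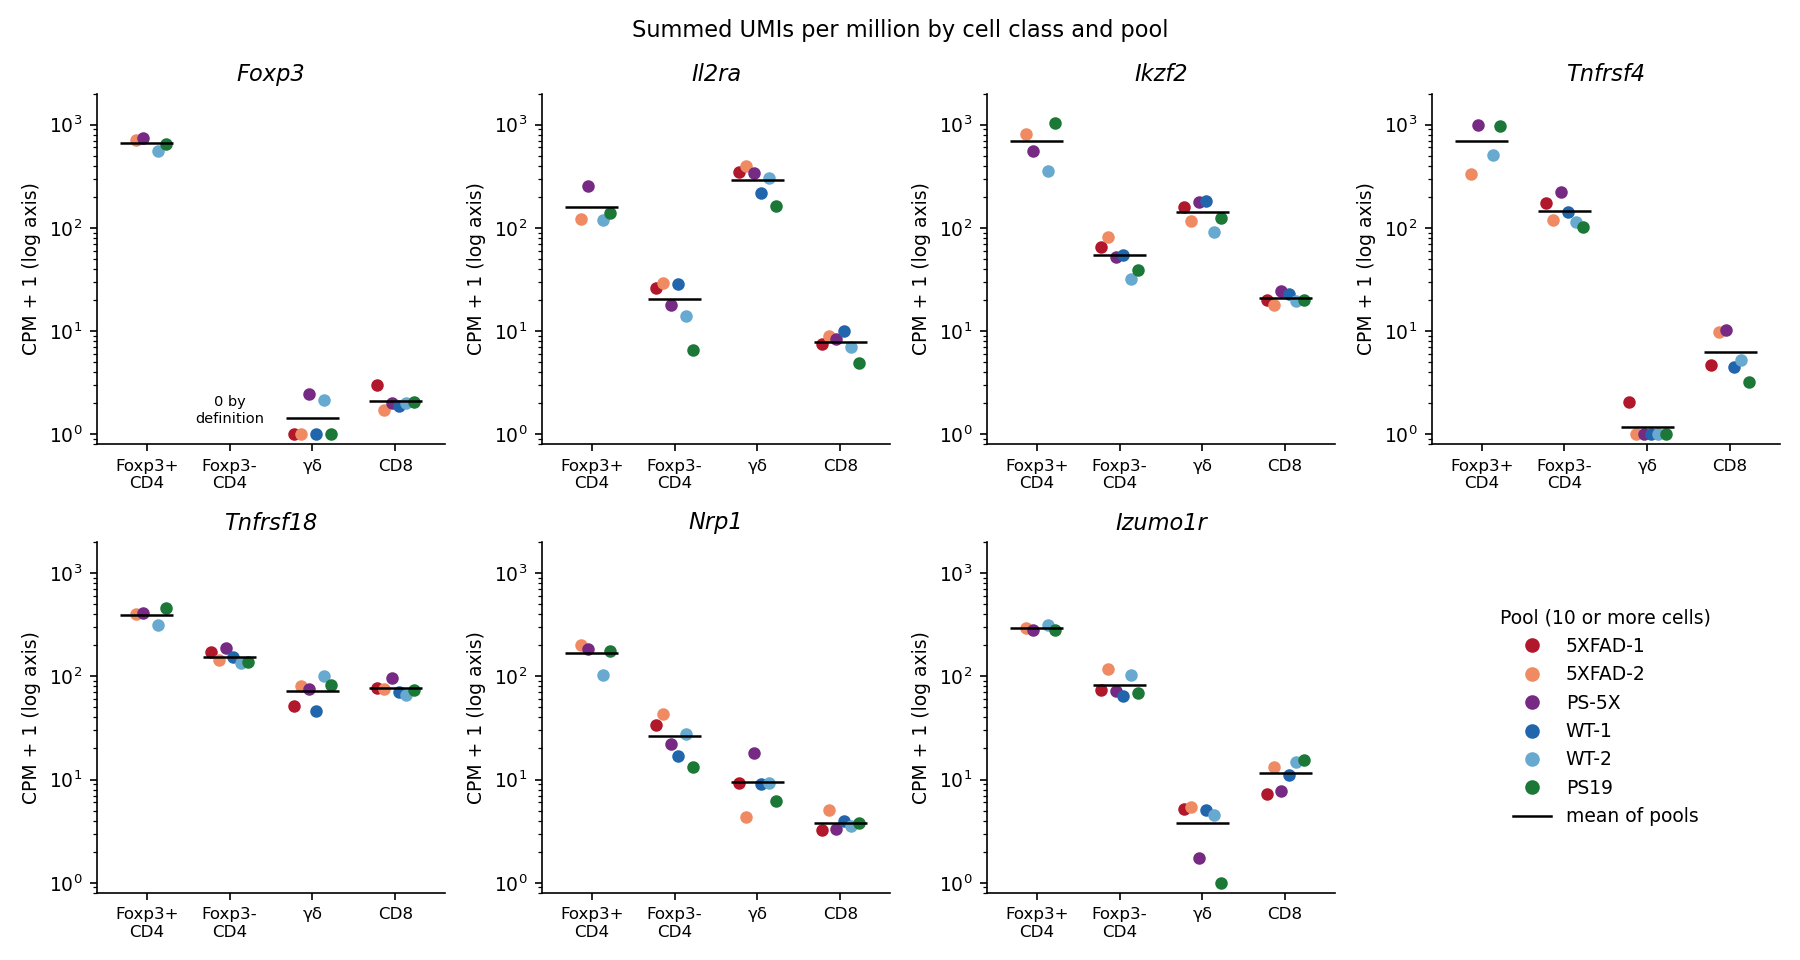
CPM of each gene (log axis, CPM plus 1) by cell class, with 1 point for each pool with 10 or more cells of the class and a line at the mean of the pools. Il2ra is highest in γδ cells, Tnfrsf4 and Izumo1r nearly absent there, and Foxp3+ CD4 cells lie above Foxp3- CD4 and CD8 cells in each panel.

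Il2ra, the CD25 chain, was highest in γδ T cells. In these it measured 343 (5XFAD-1), 394 (5XFAD-2), 340 (PS-5X), 216 (WT-1), 302 (WT-2) and 161 (PS19) CPM. Foxp3+ CD4 cells had 119 (5XFAD-2), 254 (PS-5X), 119 (WT-2) and 137 CPM (PS19), Foxp3- CD4 cells 5.49 to 28.1 CPM and CD8 cells 3.90 to 9.11 CPM. The Foxp3+ and γδ ranges overlapped, but within each of the 4 pools the Foxp3+ value was the lower one. The difference was called at a log2 fold change of -1.0 ± 0.23 (SE, adjusted p = 0.00188). Against Foxp3- CD4 cells, Foxp3+ cells were higher by 3.00 ± 0.30 (adjusted p = 5.23e-07). γδ cells exceeded CD8 cells by 5.34 ± 0.14, higher in 6 of 6 pools with no overlap (adjusted p = 1.21e-19; 20.7% of all genes higher and 20.8% lower in this contrast). NK markers also stood apart here, with a sum of 200 to 760 CPM in γδ cells and 9.08 to 50.03 CPM in CD8 cells; without the γδ cells with NK receptor genes the call of Il2ra was kept. With each cell thinned to 2000 UMIs, Il2ra was detected in 26.0% of Foxp3+ CD4, 2.64% of Foxp3- CD4, 35.7% of γδ and 1.28% of CD8 cells. The low ranks, Foxp3- CD4 over CD8, overlapped between pools, although Foxp3- CD4 was higher within 6 of 6 (log2 1.34 ± 0.19, adjusted p = 9.94e-06).

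Ikzf2 (Helios) followed a different order. It had 807 (5XFAD-2), 551 (PS-5X), 356 (WT-2) and 1033 CPM (PS19) in Foxp3+ CD4 cells, against 30.9 to 79.7 CPM in Foxp3- CD4, 90.2 to 179 CPM in γδ and 17.0 to 23.6 CPM in CD8 cells. The 4 classes did not overlap, and WT-2 was the lowest of the Foxp3+ values. Foxp3+ cells were higher than Foxp3- cells by 3.56 ± 0.21 (adjusted p = 6.37e-11), than γδ cells by 2.21 ± 0.21 (adjusted p = 2.11e-08) and than CD8 cells by 4.82 ± 0.22 (adjusted p = 4.76e-14). Foxp3- CD4 cells were lower than γδ cells by -1.35 ± 0.17 (adjusted p = 7.09e-07). γδ over CD8 was 2.61 ± 0.17 (adjusted p = 3.16e-12).

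The neighbouring receptor genes of chromosome 4 differed in γδ T cells, where Tnfrsf4 was all but absent and Tnfrsf18 was not. Tnfrsf4 (OX40) had 329 (5XFAD-2), 982 (PS-5X), 507 (WT-2) and 972 CPM (PS19) in Foxp3+ CD4 cells, against 174 (5XFAD-1), 119 (5XFAD-2), 221 (PS-5X), 142 (WT-1), 112 (WT-2) and 100.2 CPM (PS19) in Foxp3- CD4 cells. In γδ cells a single Tnfrsf4 UMI was counted among 5076404, while CD8 cells had 2.19 to 9.25 CPM, a γδ over CD8 ratio of 0.0324 with a counting interval of 0.000818 to 0.181. With classes from clusters, this difference was smaller and not called (log2 -1.74, edgeR adjusted p = 0.0657). Foxp3+ cells were higher than Foxp3- cells by 2.09 ± 0.22 (adjusted p = 7.46e-07) and Foxp3- CD4 cells higher than CD8 cells by 4.65 ± 0.19 (adjusted p = 5.73e-15). Tnfrsf18 (GITR) was present in each lineage: 403 (5XFAD-2), 410 (PS-5X), 315 (WT-2) and 456 CPM (PS19) in Foxp3+ CD4 cells, against 133 to 189 CPM in Foxp3- CD4, 44.8 to 101 CPM in γδ and 64.6 to 95.5 CPM in CD8 cells. Foxp3+ cells exceeded Foxp3- cells by 1.13 ± 0.16 (adjusted p = 1.94e-05), the smallest fitted fold change of the 6 in that contrast. γδ and CD8 ranges overlapped, with γδ higher in 3 of 6 pools, and the contrast was not called (log2 -0.21 ± 0.12, adjusted p = 0.200). This changed with the settings: without γδ cells that had an Ncr1 or Klrb1c UMI, Tnfrsf18 was lower in γδ than in CD8 cells by -0.61 (adjusted p = 0.000805), without WT-2 by -0.37 (adjusted p = 0.0210), and with classes taken from clusters by -1.03 (adjusted p = 1.66e-06). Over 17 alternatives the adjusted p ran from 1.66e-06 to 0.630.

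Nrp1 (neuropilin-1) had 202 (5XFAD-2), 184 (PS-5X), 102 (WT-2) and 175 CPM (PS19) in Foxp3+ CD4 cells, against 12.3 to 42.2 CPM in Foxp3- CD4, 3.35 to 17.0 CPM in γδ and 2.22 to 4.12 CPM in CD8 cells. Foxp3+ cells stood apart from the other classes, being higher than Foxp3- cells by 2.47 ± 0.30 (adjusted p = 4.22e-06). Foxp3- CD4 and γδ cells overlapped, as did γδ and CD8 cells. The call of Nrp1 as higher in γδ than in CD8 cells (1.55 ± 0.38, adjusted p = 0.00165) was lost without PS-5X (0.97, adjusted p = 0.0993) and after thinning (1.01, adjusted p = 0.221), with 47 UMIs in γδ cells, 23 of them from PS-5X.

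Izumo1r (folate receptor 4) had the narrowest Foxp3+ range, 291 (5XFAD-2), 283 (PS-5X), 315 (WT-2) and 281 CPM (PS19). Foxp3- CD4 cells had 63.7 to 115 CPM, with the 2 pools of the separate run highest. CD8 cells had 6.18 to 14.5 CPM and γδ cells 0 to 4.46 CPM (13 UMIs). No 2 classes overlapped. Foxp3+ over Foxp3- CD4 was 1.5 ± 0.20 (adjusted p = 1.5e-05), Foxp3- CD4 over CD8 was 2.91 ± 0.13 (adjusted p = 2.63e-14), and γδ over CD8 was -2.15 ± 0.44 (adjusted p = 0.000312).

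**Figure D2:**
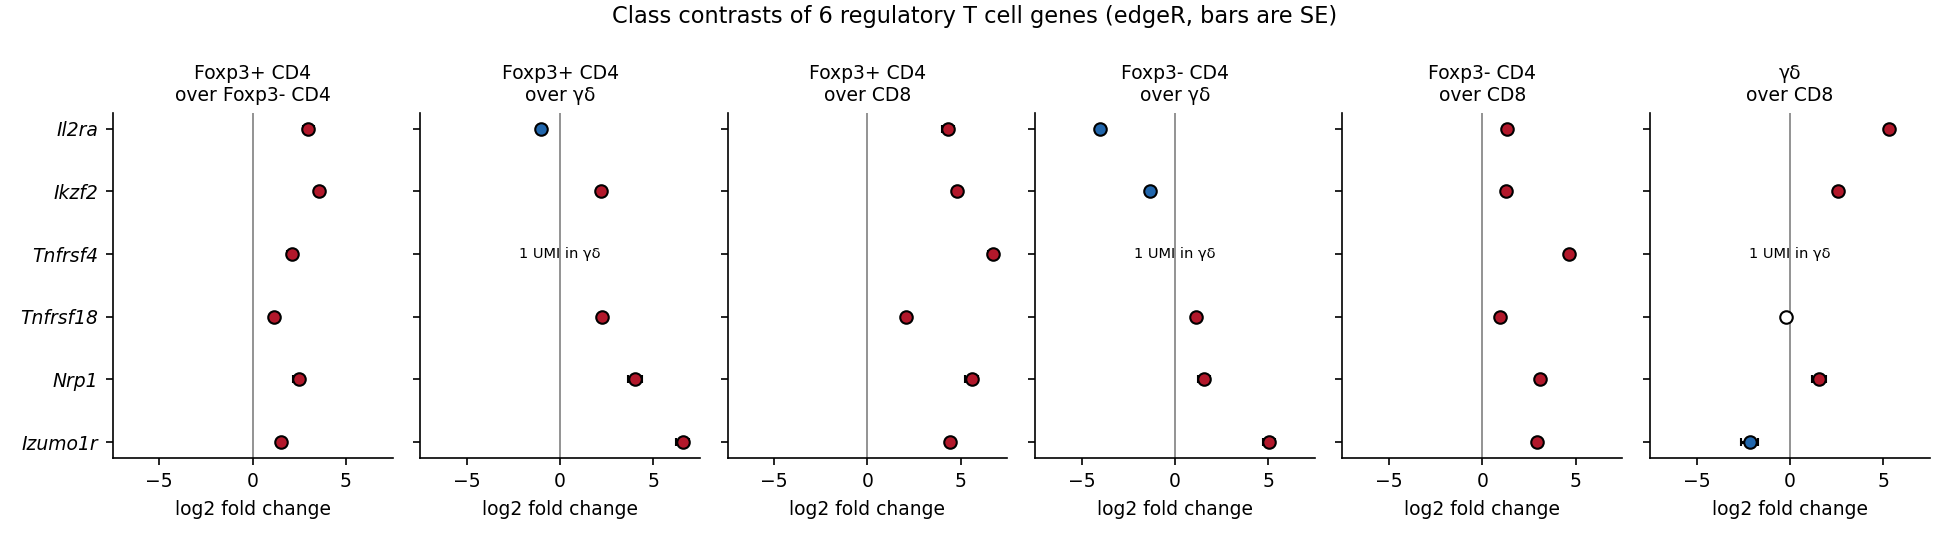
Log2 fold change of each gene in the 6 class contrasts, with the SE as bars. Filled red points are called higher and blue points lower at an adjusted p under 0.05, and the open point (Tnfrsf18, γδ over CD8) is not called. Tnfrsf4 is not drawn against γδ cells, which held 1 UMI. Il2ra is the gene for which Foxp3+ CD4 cells lie below γδ cells.

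Several of the genes were often detected in the same Foxp3+ CD4 cell. Whether this went beyond what the detection rates of the single genes give was not tested. At least 3 of the 6 genes besides Foxp3 were detected in 88 of 105 Foxp3+ CD4 cells (83.8%), 17.5% of Foxp3- CD4, 11.1% of γδ and 1.12% of CD8 cells. With each cell thinned to 2000 UMIs the shares were 51.0% (exact 95% interval 41.0 to 60.9%), 5.53% (4.65 to 6.51%), 0.815% (0.300 to 1.77%) and 0.155% (0.0868 to 0.256%) in the same order. All 6 were seen in 10 Foxp3+ cells, 4 Foxp3- CD4 cells, no γδ cell and 1 CD8 cell. Foxp3+ CD4 cells with a single Foxp3 UMI had 3 or more of the other genes in 12 of 20 cells (60.0%, median depth 5446 UMIs), and those with 2 or more Foxp3 UMIs in 76 of 85 (89.4%, 6158 UMIs). γδ cells most often had 2 of the genes, and Il2ra and Ikzf2 were those detected in most γδ cells (63.4% and 51.5% unthinned).

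**Figure D3:**
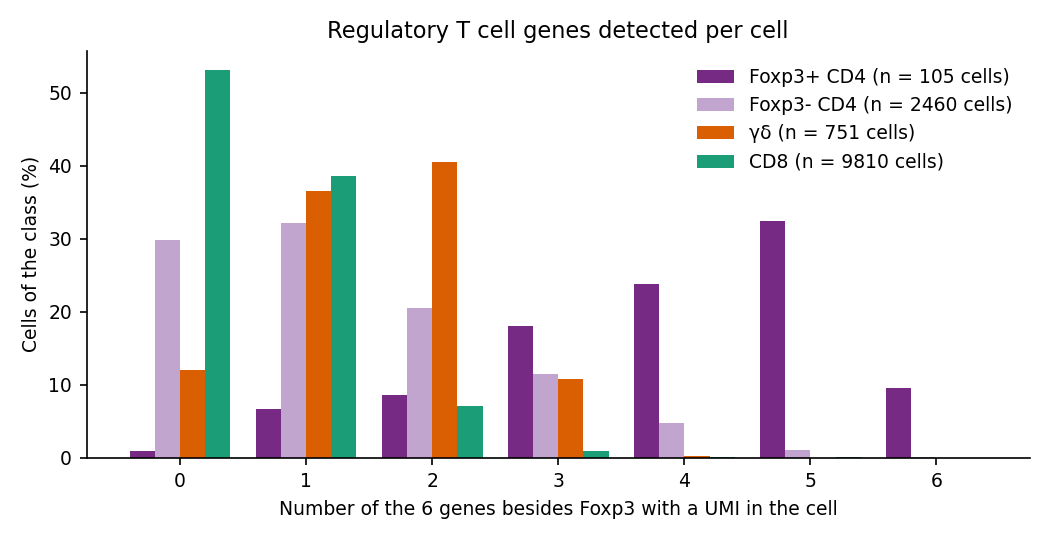
Share of cells in each class by how many of the 6 genes besides Foxp3 had at least 1 UMI, at full depth. Foxp3+ CD4 cells peak at 5 genes (32.4%), γδ cells at 2 (40.5%) and CD8 cells at 0 (53.1%).

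When all cells were clustered, which used these genes too and so tests nothing about them, 83 of the 105 Foxp3+ CD4 cells fell in a cluster of 196 cells led by Foxp3, Lrrc32, Tnfrsf4 and Areg, together with 12 Foxp3- CD4 cells and 101 cells outside the CD4 class. The cluster held 196 CPM of Il2ra, 680 of Ikzf2, 831 of Tnfrsf4, 450 of Tnfrsf18, 193 of Nrp1 and 267 of Izumo1r. The other CD4 cells lay mainly in 2 clusters. The one led by Cd40lg and Tnfrsf4 (1821 cells) had 267 CPM of Tnfrsf4, 228 of Tnfrsf18, 74.3 of Ikzf2 and 42.5 of Nrp1. The one led by Igfbp4 and including Lef1 among its leading genes (1274 cells) had 18.3 CPM of Tnfrsf4, 68.1 of Tnfrsf18, 4.83 of Ikzf2 and 0.85 of Nrp1. Izumo1r was 89.0 CPM in the first and 93.3 CPM in the second. Izumo1r was likewise at its highest among CD8 clusters in one led by Ccr7 and Dapl1 (29.3 CPM) and one led by Dapl1 and Tmem108 (25.6 CPM). Among CD8 clusters, Ikzf2 was highest in one led by Ccl3, Ccl4 and Pdcd1 (82.6 CPM) and Tnfrsf4 in one led by Trbv29 and Lag3 (67.8 CPM). The γδ cluster with Trdv4, Cd163l1 and Il17a had 405 CPM of Il2ra and 155 of Ikzf2, whereas the cluster led by Fcer1g and Ncr1 had 17.8 CPM of Il2ra, 125 of Ikzf2 and 177 of Tnfrsf18.

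Across the 22 sums of the 4 classes and 6 pools, which share pools and cell classes, Pearson correlations of log2(CPM + 1) described how the genes ran together. Tnfrsf4 and Izumo1r were most alike (r = 0.96), followed by Tnfrsf4 with Tnfrsf18 (0.90) and Tnfrsf18 with Nrp1 (0.89). Il2ra had 0.81 with Ikzf2, -0.13 with Tnfrsf4 and -0.13 with Izumo1r, and Ikzf2 had 0.80 with Nrp1 and 0.62 with Tnfrsf18. No like genes are given for Foxp3, whose level is 0 in the Foxp3- sums by the split itself. Of 6197 genes with a mean of 20 CPM or more, those most like Il2ra were Myo1e (0.97), Itm2b (0.97) and Trpv2 (0.95), and most like Ikzf2 were Psen2 (0.95), Lamc1 (0.95) and Lsp1 (0.94). Tnfrsf4 was followed by Cd5 and Ctsb (0.94 each) after Izumo1r, Tnfrsf18 by Trib1 (0.96), Gna15 (0.95) and Ctsb (0.94), Nrp1 by Tspan32, Snx20 (0.94 each) and Rgs14 (0.93), and Izumo1r by Trib1 and Fam3c (0.93 each) after Tnfrsf4.

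Lists of genes around the members, 4 in all, were counted between Foxp3+ and Foxp3- CD4 cells, where the median log2 fold change of all 9906 genes was -0.08, 4.15% were higher and 4.03% lower. Of 12 genes of interleukin-2 signalling, 1 was higher and 5 lower, with a median of -0.18. Stat5b, a transcription factor activated by the receptor, averaged 201 ± 69.8 CPM in Foxp3+ cells and 118 ± 7.88 CPM in Foxp3- cells (SD, n = 4 and 6 pools; log2 0.58, adjusted p = 0.0338). This call was lost without WT-2, without PS19 and after thinning. Il2, the cytokine, averaged 5.78 ± 7.22 CPM (4 UMIs) in Foxp3+ cells and 47.0 ± 8.49 CPM in Foxp3- cells (log2 -3.27, adjusted p = 0.000101). The survival factor Bcl2 (log2 -1.60, adjusted p = 6.45e-05), the interleukin-7 receptor Il7r (-0.80, adjusted p = 0.000171) and the feedback inhibitor Socs1 (-0.94, adjusted p = 0.00418; 0.190 after thinning) were also lower. Il2ra thus stood higher in the class in which Il2 was lower.

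Of 12 listed ligands and signalling genes of OX40 and GITR, 10 were tested, and the ligands Tnfsf4 and Tnfsf18 were not among them. Of the 10, 4 were higher in Foxp3+ CD4 cells and none lower, with a median of 0.47. These were the NF-κB subunits Nfkb2 (121 ± 16.0 CPM in Foxp3+ cells and 48.0 ± 6.31 CPM in Foxp3- cells; log2 1.21, adjusted p = 3.46e-05) and Nfkb1 (log2 0.60, adjusted p = 0.0149), the adaptor Traf1 (log2 1.09, adjusted p = 3.64e-05) and the ubiquitin ligase Birc3 (log2 1.05, adjusted p = 0.000725). After thinning Traf1 kept its call (log2 1.03, adjusted p = 0.000254), and Nfkb2 (adjusted p = 0.0797), Birc3 (0.317) and Nfkb1 (0.476) lost theirs. Of 21 measured suppressive and effector genes, 14 were higher and none lower, with a median of 1.94. The inhibitory receptor Ctla4 averaged 1033 ± 250 CPM in Foxp3+ cells and 231 ± 99.1 CPM in Foxp3- cells (log2 2.29, adjusted p = 2.61e-09). Lrrc32, which encodes the latent TGF-β docking protein GARP, averaged 194 ± 81.5 and 2.26 ± 3.8 CPM in these classes (log2 6.42, adjusted p = 1.40e-07). Capg, an actin-capping protein (log2 1.53, adjusted p = 5.55e-07), and the surface molecule Cd83 (log2 4.65, adjusted p = 4.22e-06) were next by p. Of 20 transcription factors tied to Foxp3 or to T cell quiescence, 5 were higher and 5 lower, with a median of 0.11. Ikzf4, the Helios relative Eos, averaged 57.7 ± 26.9 CPM in Foxp3+ cells and 5.05 ± 2.07 CPM in Foxp3- cells (log2 3.47, adjusted p = 7.32e-07). It rested on 34 UMIs in Foxp3+ cells and was not tested after thinning. Foxo1 (log2 0.88, adjusted p = 9.45e-05), Gata3 (1.03, adjusted p = 0.000673; 0.401 after thinning) and Batf (1.10, adjusted p = 0.000741) were higher. The naive-cell factors Tcf7 (log2 -1.67, adjusted p = 6.51e-07) and Lef1 (-1.16, adjusted p = 4.16e-05), the chromatin organizer Satb1 (-1.59, adjusted p = 1.27e-05) and Ikzf1, which encodes Ikaros (-0.89, adjusted p = 1.70e-05), were lower. Among markers of other cells, Ighm was the only one called of the 10 tested in this contrast (396 to 607 CPM in Foxp3+ cells and 98.3 to 607 CPM in Foxp3- cells, adjusted p = 0.0433). Of the 6 B and plasma cell markers, 4 had UMIs in Foxp3+ cells, and Ms4a1 and Jchain were at 0. Cd79b ran the same way as Ighm without a call (log2 1.85, edgeR adjusted p = 0.171), and Igkc ran the other way (log2 -0.35, adjusted p = 0.929). Over the 6 B and plasma cell markers the sum was 474 to 668 CPM in Foxp3+ cells and 133 to 2006 CPM in Foxp3- cells. Its part in these results was not tested.

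The receptor library gave a readout that the Foxp3 split had not used. Foxp3+ CD4 cells were in clones of 2 or more cells less often than Foxp3- CD4 cells: 1 of 7 in 5XFAD-1, 1 of 18 in 5XFAD-2, 3 of 25 in PS-5X, 0 of 2 in WT-1, 0 of 34 in WT-2 and 0 of 19 in PS19, against 33.7%, 13.9%, 18.7%, 12.1%, 17.2% and 13.2% of Foxp3- cells of the same pools. The mean share was 5.31 ± 6.48% in Foxp3+ cells and 18.1 ± 8.01% in Foxp3- cells (SD, n = 6 pools), lower by -12.8 percentage points and lower in 6 of 6 pools (exact two-sided permutation test over sign flips, p = 0.03125, the smallest that 6 pools allow). In the 4 pools with at least 10 Foxp3+ cells the difference was -11.4 points, lower in 4 of 4, where the smallest p that can be had is 0.125 (exact permutation p = 0.125). Without cells whose receptor was shared between pools the difference was -6.83 points, lower in 5 of 6 (exact permutation p = 0.09375). The 2 to 34 Foxp3+ cells of a pool limit how often a clone can be seen more than once, and class sizes were not matched. The 105 cells held 104 clones, at most 2 cells of a clone were Foxp3+, and 2 clones held both Foxp3+ and Foxp3- cells. In CD8 cells, cells of expanded clones had more Ikzf2 than singletons in 6 of 6 pools (medians 34.7 and 13.3 CPM), as well as more Tnfrsf18 (88.4 and 68.7) and Il2ra (8.48 and 5.48), and less Izumo1r in 5 of 6 (5.37 and 11.4). These are values with no test.

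**Figure D4:**
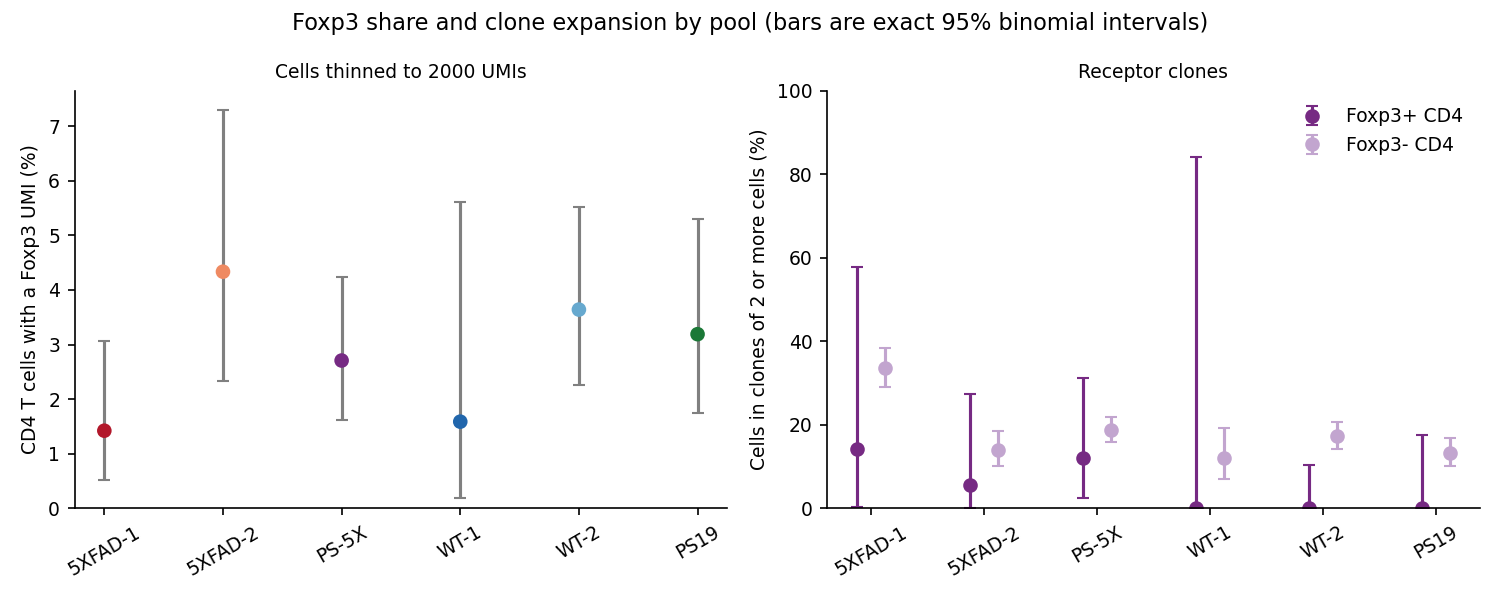
Left, share of CD4 T cells with a Foxp3 UMI after thinning, by pool. Right, share of Foxp3+ and Foxp3- CD4 cells in clones of 2 or more cells; bars are exact 95% binomial intervals. The amyloid pools (first 3, 1.42 to 4.33%) overlap the others (1.59 to 3.64%), and the Foxp3+ point lies below the Foxp3- point in each pool.

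The mouse models allowed the genes to be compared between pools with and without the amyloid transgenes, with tau in the model, and between pools with and without the tau transgene. The share of CD4 T cells with a Foxp3 UMI, in cells thinned to 2000 UMIs, was 1.42% (5XFAD-1), 4.33% (5XFAD-2) and 2.71% (PS-5X) in pools with amyloid, and 3.19% (PS19), 1.59% (WT-1) and 3.64% (WT-2) in those without. The means were 2.82 ± 1.46% and 2.81 ± 1.08% in that order (SD, n = 3 each; difference 0.0153 points, exact two-sided permutation p = 1, where 0.10 is the smallest p that 3 against 3 allows). Taken run by run, the difference was -0.324 points among the common-run pools and 0.694 between 5XFAD-2 and WT-2, and WT-1 and 5XFAD-1 were the lowest 2 of the 6 pools. Without thinning the means were 3.74% and 3.89%.

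No member was called for amyloid or tau in any class by edgeR at an adjusted p under 0.05, nor by DESeq2. For amyloid in Foxp3- CD4 cells 0% of genes were called in either direction, and 4 of the 6 members had an unadjusted p under 0.05, in DESeq2 also 4, all with a positive fold change. Over all genes tested, 4.64% had an unadjusted p under 0.05 in edgeR and 1.69% in DESeq2. Ikzf2 had 64.1 (5XFAD-1), 79.7 (5XFAD-2) and 51.4 CPM (PS-5X) in amyloid pools, against 54.1 (WT-1), 30.9 (WT-2) and 38.1 CPM (PS19) in the others, higher in 3 of 3 matched pairs (log2 0.70 ± 0.20, edgeR adjusted p = 1.00). Nrp1 had 33.1, 42.2 and 21.2 CPM in the same amyloid pools, against 15.9, 26.9 and 12.3 CPM in the others (log2 0.71 ± 0.21, adjusted p = 1.00). Both sets of ranges overlapped, as did those of Il2ra (log2 0.87 ± 0.31) and Tnfrsf4 (log2 0.55 ± 0.22). Under the other settings run the 4 fold changes kept their sign, and with no filter on low counts Il2ra, Ikzf2 and Tnfrsf4 were called (edgeR adjusted p = 0.0305, 0.00517 and 0.0241, where the other alternatives gave 0.260 to 1.00), in a fit that called 0.819% of all genes. In Foxp3+ CD4 cells, with 0% of genes called for amyloid, no member had an unadjusted p under 0.05 in edgeR or DESeq2, against 4.34% and 0.620% of all genes. Sums of a class mix the share of cells with a gene and its RNA per cell. In Foxp3- CD4 cells thinned to 2000 UMIs, Ikzf2 was detected in 9.40% (5XFAD-1), 16.0% (5XFAD-2) and 8.44% (PS-5X) of cells. The share was 8.87% (WT-1), 4.96% (WT-2) and 5.71% (PS19) in the others. For Nrp1 the shares were 7.23%, 6.74% and 4.22%, against 4.84%, 5.33% and 2.14%, with pools in the same order. Both sets of shares overlapped, and how far either part made up the sums was not tested.

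Il2ra in γδ T cells had 343 (5XFAD-1), 394 (5XFAD-2) and 340 CPM (PS-5X) in amyloid pools, against 161 (PS19), 216 (WT-1) and 302 CPM (WT-2). These CPM ranges did not overlap, which held for 4.76% of genes with a mean of at least 5 CPM in the same direction. WT-1 held only 33 γδ cells, the fewest of the pools. Such sums mix the share of γδ cells with Il2ra and its RNA per cell. How far either part made up the gap in CPM was not tested. The log2 fold change was 0.67 ± 0.17 with an unadjusted edgeR p of 0.00133 and an adjusted p of 0.244 (0.075% of genes called in either direction, and 5.85% with an unadjusted p under 0.05). It was called with no filter on low counts (0.69, edgeR adjusted p = 0.00489; 0.761% of all genes called in that fit), and over all alternatives the adjusted p ran to 1.00. The fold change was 0.59 without the γδ cells that had NK genes, 0.41 with classes from clusters and 0.48 without PS19. Foxp3, Tnfrsf4, Nrp1 and Izumo1r were too low in γδ cells to be tested by genotype. In CD8 cells (0% of genes called for amyloid) Tnfrsf18 was 75.4 (5XFAD-1), 75.0 (5XFAD-2) and 95.5 CPM (PS-5X) in amyloid pools, against 70.0 (WT-1), 64.6 (WT-2) and 73.3 CPM (PS19) in the others (log2 0.24 ± 0.08, adjusted p = 0.381). These CPM ranges did not overlap, as in 8.43% of genes. Tnfrsf4 (log2 1.12 ± 0.41, adjusted p = 0.424) and Izumo1r (log2 -0.71 ± 0.27, adjusted p = 0.450) in CD8 cells also had an unadjusted p under 0.05, as did 9.86% of all genes there. Both were called with no filter, where 3.04% of all genes were.

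**Figure D5:**
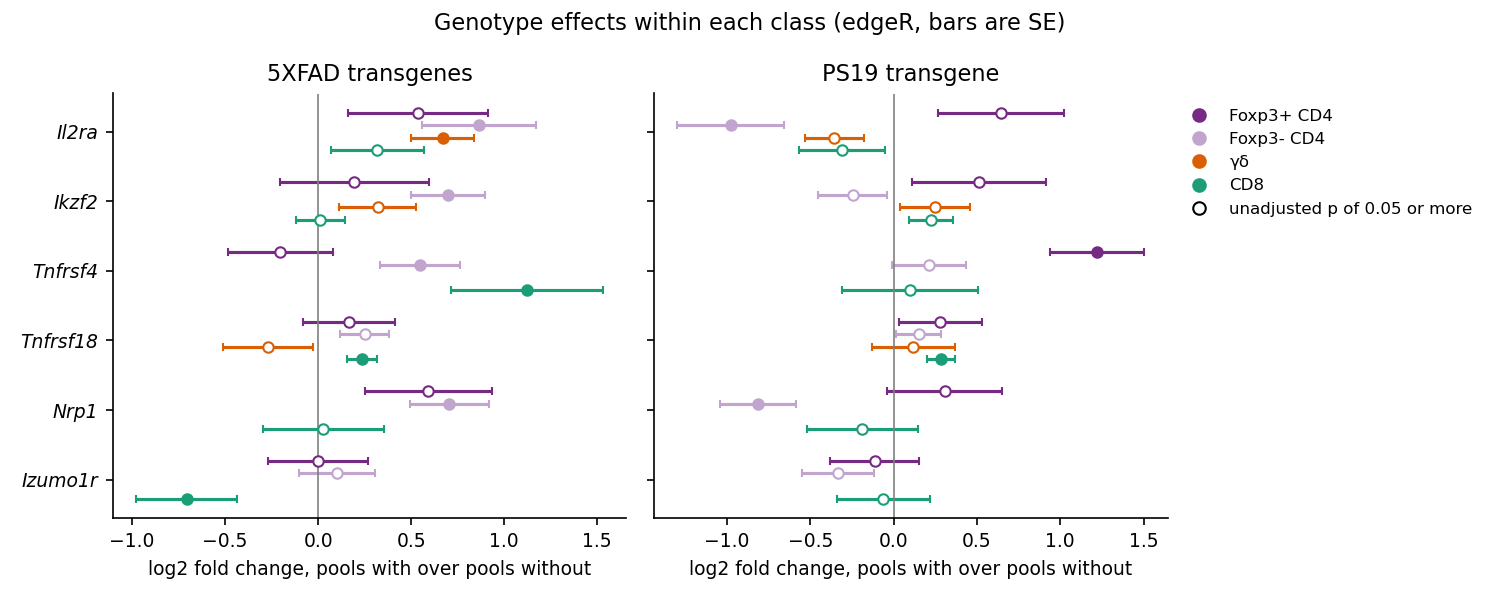
Log2 fold change of the 6 genes besides Foxp3 with the 5XFAD transgenes (left) and with the PS19 transgene (right) in each class, with the SE as bars. Filled points have an unadjusted edgeR p under 0.05, none is called after adjustment over all genes, and genes too low to be tested are not drawn.

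For tau, Tnfrsf4 in Foxp3+ CD4 cells had 982 (PS-5X) and 972 CPM (PS19) in tau pools, against 329 (5XFAD-2) and 507 CPM (WT-2) in the others (log2 1.22 ± 0.28, edgeR adjusted p = 0.227; 0.0775% of genes called). Among these 4 pools the tau transgene and the sequencing run cannot be told apart. The 7 Foxp3+ cells of 5XFAD-1, from the common run and without tau, had 974 CPM, and the 2 of WT-1 had 462 CPM. With both pools included the value was 0.79 (edgeR adjusted p = 0.621), with classes from clusters 0.23, and with no filter 1.2 (adjusted p = 0.0244; 0.607% of all genes called). An unadjusted p under 0.05 was found for 1 of the 6 members and for 8.09% of all genes. In Foxp3- CD4 cells (0.0101% of genes called) Il2ra had 16.9 (PS-5X) and 5.49 CPM (PS19), against 12.9 to 28.1 CPM in the 4 pools without tau (log2 -0.98 ± 0.32, adjusted p = 0.921), and Nrp1 had 21.2 and 12.3 CPM, against 15.9 to 42.2 CPM (log2 -0.81 ± 0.23, adjusted p = 0.674); both were called with no filter, as were 1.09% of all genes. They were the 2 members with an unadjusted p under 0.05, against 4.83% of all genes. Of the members in CD8 cells (0% of genes called for tau) 1 had an unadjusted p under 0.05, Tnfrsf18 (log2 0.28 ± 0.08, adjusted p = 0.868), against 5.53% of all genes. Of the 3 tested in γδ cells (0.125% called) none did, in edgeR or DESeq2, against 6.88% and 2.46% of all genes. Foxp3 over all CD4 cells was 27.2 (PS-5X) and 27.9 CPM (PS19) in tau pools, against 13.4 (5XFAD-1), 51.1 (5XFAD-2), 9.38 (WT-1) and 41.7 CPM (WT-2) in the others (log2 -0.11 ± 0.49, adjusted p = 0.994; 0.0101% of genes called). The replicate number, which marks the run, turned this value round: with the replicate block it was 1.25 ± 0.24 (edgeR adjusted p = 0.0250), where the other alternatives gave 0.943 to 1.00. Within the common run the tau pools lay above 5XFAD-1 and WT-1, and the separate run held no tau pool. Each pool of the common run, with or without tau, shared receptors with another pool of that run.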

How the data were processed

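UMI counts per gene and cell were deposited by the authors; per the submitters' processing notes they came from Cell Ranger 6.0.1 on GRCm38 (mm10), and the counts are not normalized. The deposited receptor contig lists are text. Which step the tool served, and the filters applied before deposit, are not given in the sources used here.

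Barcodes under 500 genes or over 10% mitochondrial UMIs were dropped, and Scrublet scores (scanpy 1.11.5) removed the top 0.8% per 1000 cells of each pool as doublets, since its automatic threshold marked few. UMIs were summed per pool and class (at least 10 cells) and tested with edgeR 4.0.16 (quasi-likelihood, TMM, filterByExpr, Benjamini-Hochberg over all genes, adjusted p under 0.05). The pool was a block in class contrasts, and genotype fits held amyloid and tau. Sums lacking 10 cells were dropped: 5XFAD-1 and WT-1 for Foxp3+ CD4 cells, whose genotype fit had 1 residual degree of freedom. Counts of known fold were recovered on simulated data: 78.6% of 4-fold and 38.9% of 2-fold changes for Foxp3+ against Foxp3- CD4, over 9500 genes. The simulation gave every gene the same dispersion and held no pool effect. Recovery in the real sums can therefore be lower and was not measured. DESeq2 1.42.0, other filters, doublets kept, clusters (Leiden, leidenalg 0.10.2), thinning, each pool left out and the replicate block were tried. Intervals are exact binomial or Poisson.

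The labels put replicate 2 of WT and 5XFAD in a run of their own, so the number marks a shared batch. Deviations of same-numbered pools correlated at 0.24 in Foxp3- CD4, 0.24 in all CD4, 0.08 in γδ and 0.25 in CD8 cells (2 pairs). Pools are the replicates. In the genotype fits and the test of the Foxp3 share, p-values measure the spread between pools. In the class contrasts and the clone test, they measure how far differences within a pool vary from pool to pool.

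The members and the gene lists were chosen with earlier results of these data known. Named genes were the 7 members, up to 4 genes of a list with the smallest p in each direction, the 3 genes most like each member other than Foxp3, and markers of other cells. Lists are reported for Foxp3+ against Foxp3- CD4 cells. Clonotype and consensus tables were not used here. The alternatives chosen after seeing the data were pools with under 10 cells included, γδ cells with NK genes left out, 2 or more Foxp3 UMIs in the genotype fits, and the clone comparison in pools with at least 10 Foxp3+ cells.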

Additional observations from a re-analysis of the deposited data

Results flagged for a closer look

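Among 27 combinations of gene and class, 5 had a pool far from the others by a gap test that chance would pass in about 1 of 20. These were Il2ra in Foxp3+ CD4 cells, where PS-5X had 254 CPM and the next pool 137 CPM, Nrp1 in γδ cells, where PS-5X had 17.0 CPM and the next 8.35 CPM, and Tnfrsf18 in CD8 cells, where PS-5X had 95.5 CPM and the next 75.4 CPM. The others were Foxp3 in CD8 cells, where 5XFAD-1 had 2.03 CPM and the next 1.05 CPM, and Tnfrsf4 in γδ cells, whose single UMI gave 1.04 CPM in 5XFAD-1.

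The pairs of pools differed in Izumo1r in opposite directions between classes, although it was not called for amyloid in any class. It was higher in amyloid pools in 3 of 3 matched pairs of Foxp3- CD4 cells (mean difference 9.44 CPM) and of γδ cells (0.596 CPM, from 13 UMIs), and lower in 3 of 3 pairs of CD8 cells (-4.39 CPM). The difference between classes was not tested.

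Of the 4250 cells that met no class rule, 130 had a Foxp3 UMI (3.06%, exact 95% interval 2.56 to 3.62%), against 0.652% of CD8 cells. Of these 130, 67.7% held 3 or more of the other 6 genes, against 7.40% of cells in no class without a Foxp3 UMI, at median depths of 5681 and 4894 UMIs.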

How the results depend on the processing

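In the 6 class contrasts 35 member results were called, and of their 595 values under alternatives 592 kept the direction and the call, 3 lost the call and none reversed. The 3 were Nrp1 in γδ against CD8 cells without PS-5X and after thinning, and Tnfrsf4 there with classes from clusters (log2 -1.74, adjusted p = 0.0657); the causes were not tested. Foxp3 in all CD4 against CD8 cells stayed between log2 4.28 and 5.01. With no filter on low counts, members called for amyloid numbered 3 in Foxp3- CD4, 1 in γδ and 2 in CD8 cells (0.819%, 0.761% and 3.04% of all genes were called in these fits), and for tau 1 in Foxp3+ and 2 in Foxp3- CD4 cells, against 0 each with the filter. The replicate block called 1 member for tau in all CD4 cells (Foxp3), and changed no other call of a member. That value was 1.25 with the block, also reversed without WT-2 (0.35), without 5XFAD-2 (0.36) and after thinning (0.40), and was -0.46 without 5XFAD-1. The Foxp3 share difference with the replicate block was 0.185 points. It reversed unthinned (-0.145), at 1000 UMIs (-0.218) and 3000 UMIs (-0.0671), with 2 or more Foxp3 UMIs (-0.000589) and without shared receptors (-0.0165), and spanned -0.741 to 0.715 with 1 pool left out. The clone difference spanned -14.0 to -11.5 with 1 pool left out, where the exact permutation p of 0.0625 is the smallest 5 pools allow, and was -6.83 without shared receptors and -11.4 without pools with under 10 Foxp3+ cells.

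Interleukin-2 signalling genes called higher numbered 3 with classes from clusters, 0 after thinning and 0 to 1 with a pool left out, and those lower 3 after thinning. Transcription factors higher numbered 8 with clusters, 3 after thinning and 3 to 5 with a pool left out (3 without PS-5X), and signalling genes of OX40 and GITR 1 after thinning. Genes called between Foxp3+ and Foxp3- CD4 cells numbered 810, but 365 after thinning and 1262 with clusters, and in the other class contrasts 692 to 2258 after thinning, against 1631 to 4111. Genotype fits called 0 to 10 genes, 1 to 70 by DESeq2 where the count moved, 23 to 564 with no filter and 4 to 92 with the replicate block. The 105 Foxp3+ CD4 cells hold 769582 UMIs, and their median depth (5886 UMIs) is above that of Foxp3- CD4 cells (5648). These totals include the 7 cells of 5XFAD-1 and the 2 of WT-1, which did not enter the expression tests.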

Other observations

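Some clusters were not named as CD4, CD8 or γδ by their markers. Among these, Tnfrsf18 reached 199 CPM and Il2ra 47.5 CPM in a cluster of 379 cells led by Il4 and Zbtb16. Of its cells, 107 were in the CD4 class and so are counted above too. Nrp1 reached 264 CPM in a cluster of 12 cells with the endothelial genes Flt1 and Cldn5 and 39.2 CPM in one of 75 cells led by Siglech. Within Foxp3- CD4 cells, Izumo1r had a median of 36.0 CPM in cells of expanded clones and 88.3 CPM in singletons, lower in 5 of 6 pools, and Ikzf2 30.1 and 58.3 CPM in that order, also lower in 5 of 6. Il2ra ran the other way, with 35.1 CPM in expanded and 14.8 CPM in singleton cells, higher in 5 of 6 pools. These are values with no test.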
